A study of Mus musculus with 72 samples.

Results

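Microglia, the resident macrophages of the brain, were followed through 9 genes that mark them: Cx3cr1, P2ry12, Tmem119, Csf1r, Aif1, C1qa, C1qb, C1qc and Trem2. The genes were chosen as a list of symbols, and measured values played no part in the rule. All 9 were found among the 55401 genes of the count table, and all 9 passed the filter on low counts. Messenger RNA had been sequenced in bulk from dorsal (DH) and ventral (VH) parts of the hippocampus of male mice with 2 genotype labels, C57BL_6NJ (6NJ) and C57BL_6J (6J). Tissue came from mice given shock and cue (fear conditioning) or the cue alone, 30 min afterwards, or from mice taken out of the home cage. That gave 12 groups (2 regions, 2 strain labels, 3 conditions) with 6 libraries in each and 72 altogether. A code such as 31A names each library, and all 36 codes were found in both regions. Ages were not given in the sources used here, and no group was handled without the cue.

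Microglia sense their surroundings through surface receptors. Cx3cr1 is the receptor for the neuronal chemokine Cx3cl1, P2ry12 is an ADP receptor that guides the movement of microglial processes, and Csf1r is the receptor for Csf1 and Il34 on which microglial survival depends. Trem2 binds lipids and signals through the adaptor Tyrobp. C1qa, C1qb and C1qc encode the chains of C1q, the recognition part of the classical complement pathway, which microglia supply in the brain and which can tag synapses. Aif1 encodes the actin-binding protein IBA1, and Tmem119 a membrane protein used to tell resident microglia from other macrophages. In bulk tissue, fewer microglia and less RNA per microglial cell cannot be told apart.

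Gene counts summed to 30330382 to 56258370 per library, and the members had between 124 and 3955 counts in a library. Levels are given as CPM, the counts of a gene relative to a fixed library total after scaling between libraries, and differences as log2 fold changes with their standard error. A difference is said to have passed where the adjusted p of edgeR's quasi-likelihood test, over all genes tested, was under 0.05. The strain labels were checked with Nnt and Gabra2, since C57BL/6J mice are known to carry an Nnt deletion and to express little Gabra2. In DH, Nnt lay at 18.3 to 22.9 CPM in libraries labelled 6NJ and at 36.4 to 44.3 CPM in those labelled 6J, and Gabra2 at 91.4 to 124 CPM under 6NJ and at 221 to 270 CPM under 6J. Both genes went against the labels, in VH as well, so the groups are called by their label throughout and any direction between them is that of the labels. The labels do not say whether each library of a group is a separate mouse, and p-values measure the spread between these libraries, which may be technical.

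The positions are those of build GRCm38. C1qb (136880129 to 136886187), C1qc (136889804 to 136893065) and C1qa (136895917 to 136898803) follow each other on the minus strand of chromosome 4, within 18675 bases. Tmem119 lies on chromosome 5 (113793729 to 113800516, minus strand), and chromosome 17 holds Aif1 (35170991 to 35176068, minus strand) and Trem2 (48346401 to 48354147, plus strand). Cx3cr1 lies on chromosome 9 (119901616 to 120069879, minus strand), and its annotated span of 168264 bases overlaps 9 other genes, among them Wdr48 on the plus strand at a mean of 80.8 CPM. P2ry12 lies on chromosome 3 (59216272 to 59262871, minus strand) inside Med12l, which is on the plus strand at 53.9 CPM. Csf1r lies on chromosome 18 (61100598 to 61132149, plus strand), and its end overlaps Hmgxb3 on the minus strand at 46.1 CPM. The strand setting of the counting is not given in the sources used here, so the counts of Cx3cr1, P2ry12 and Csf1r are uncertain by any reads shared with these partners.

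The C1q chains had the highest levels per length and Trem2 the lowest. Over the 72 libraries C1qb averaged 61.9 ± 12.4 TPM (estimated transcript abundance per length, on the same total in each library), C1qa 58.8 ± 10.8 TPM and C1qc 48.9 ± 9.42 TPM (SD). The receptors followed, with Csf1r at 29.8 ± 7.05 TPM, P2ry12 at 24.5 ± 6.73 TPM and Cx3cr1 at 17.1 ± 4.15 TPM. Aif1 averaged 13.9 ± 1.99 TPM, Tmem119 13.3 ± 2.58 TPM and Trem2 7.12 ± 1.13 TPM. The steps from C1qa to C1qc, C1qc to Csf1r, Csf1r to P2ry12 and Tmem119 to Trem2 held in all 72 libraries. C1qb lay above C1qa in 61 of 72, P2ry12 above Cx3cr1 in 70 and Cx3cr1 above Aif1 in 59. Aif1 and Tmem119 did not differ beyond their spread, with Aif1 higher in 43 of 72. For this pair the scale decided the order, since gene counts per kilobase of exon gave a mean of 2.95 CPM for Aif1 and 7.57 CPM for Tmem119. The other members kept the same order on that scale.

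RefSeq promoters (GRCm38.p6) matched 6 of the 9 members by symbol: Cx3cr1, P2ry12, Aif1, C1qb, C1qc and Trem2. The 250 bases before the start are shown for C1qb and P2ry12, a C1q chain and a receptor that varied apart from each other in some libraries, and for Trem2, which had the largest difference between regions. Each is written on the strand of its gene, with capitals marking GAGGAA or its reverse complement, the core letters of the motif of PU.1 (Spi1), a transcription factor of myeloid cells. C1qb is chr4:136886201-136886450 and P2ry12 is chr3:59262986-59263235, both on the minus strand, and Trem2 is chr17:48346151-48346400 on the plus strand.
C1qb: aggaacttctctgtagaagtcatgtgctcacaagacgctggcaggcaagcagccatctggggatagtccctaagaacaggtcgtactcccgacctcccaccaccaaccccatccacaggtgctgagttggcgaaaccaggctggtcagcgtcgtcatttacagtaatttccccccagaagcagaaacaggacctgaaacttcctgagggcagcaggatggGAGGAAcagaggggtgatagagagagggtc
P2ry12: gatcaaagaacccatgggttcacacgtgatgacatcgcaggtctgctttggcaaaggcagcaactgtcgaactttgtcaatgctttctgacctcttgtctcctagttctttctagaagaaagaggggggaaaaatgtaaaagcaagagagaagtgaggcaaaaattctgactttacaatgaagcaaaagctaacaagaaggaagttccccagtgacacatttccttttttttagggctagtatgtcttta
Trem2: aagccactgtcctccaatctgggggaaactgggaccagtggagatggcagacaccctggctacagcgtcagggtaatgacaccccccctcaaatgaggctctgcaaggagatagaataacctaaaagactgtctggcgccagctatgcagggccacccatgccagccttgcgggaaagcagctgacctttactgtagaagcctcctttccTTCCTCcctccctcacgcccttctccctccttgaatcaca
The core letters occurred once in each of Aif1, C1qb, C1qc and Trem2, on either strand, and not in Cx3cr1 or P2ry12. In C1qb they lay 30 to 25 bases before the start on the strand of the gene, and in Trem2 40 to 35 bases before it on the other strand. Of 32851 mouse promoter windows of this length, 23.3% held these letters. The longer ETS-IRF composite motif, for PU.1 beside an IRF factor, was in none of the 6 windows on either strand and in 2.3% of all windows. These are matches of letters, and binding was not measured.

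Microglia genes were slightly more abundant in DH than in VH. Of the 9 members, 8 were higher in DH and none was lower, with folds of 1.12 to 1.18 among the 8. Most genes differed between the regions, and 63.6% of 20255 passed, 6633 higher and 6255 lower in DH. The median log2 fold change was 0.208 over the members and 0.004 over all genes.

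Among the receptors, Csf1r had its lowest, median and highest level at 50.1, 76.7 and 110 CPM in DH and at 43.7, 64.4 and 99.3 CPM in VH. The regions overlapped over most of their range, and Csf1r was higher in the DH library of 31 of 36 codes, with a log2 fold change of 0.23 ± 0.059 (adjusted p = 0.000497). Cx3cr1 had 28.7, 40.4 and 63 CPM in DH and 24.4, 35.1 and 49.1 CPM in VH, and was higher in DH in 28 of 36 codes, by 0.2 ± 0.059 (adjusted p = 0.0023). P2ry12 had 21, 31.8 and 49.5 CPM in DH and 15.5, 28 and 47.8 CPM in VH. Its regions nearly coincided at the top, and it was higher in DH in 30 of 36 codes, by 0.22 ± 0.0709 (adjusted p = 0.00514). Tmem119 had 13.7, 18 and 24.5 CPM in DH and 11.9, 15.7 and 23 CPM in VH, and was higher in DH in 30 codes, by 0.17 ± 0.0474 (adjusted p = 0.0016).

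The C1q chains differed by nearly the same amount as each other. C1qa had 27.4, 35 and 55.3 CPM in DH and 23, 30.2 and 48.3 CPM in VH (0.21 ± 0.047, adjusted p = 0.000103). C1qb had 31.2, 38.9 and 66 CPM in DH and 25.7, 33.6 and 59.2 CPM in VH (0.21 ± 0.0506, adjusted p = 0.000187). C1qc had 25.2, 34.3 and 54.6 CPM in DH and 21.7, 29.5 and 45.9 CPM in VH, a difference of 0.2 ± 0.0509 (adjusted p = 0.00058). Ranges overlapped for each chain, and the highest library of each was code 35B in both regions.

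Trem2 had the smallest p of the members and Aif1 did not pass. Trem2 lay at 8.53, 10.2 and 13.4 CPM in DH and at 7.06, 8.76 and 11.6 CPM in VH, a difference of 0.24 ± 0.0402 (adjusted p = 3e-07), and was higher in DH in 31 of 36 codes. Aif1 lay at 3.61, 4.56 and 6.45 CPM in DH and at 3.55, 4.4 and 6.09 CPM in VH, with 22 of 36 codes higher in DH. Its log2 fold change was 0.07, with a 95% interval of -0.02 to 0.16 (adjusted p = 0.153).

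**Figure D1:**
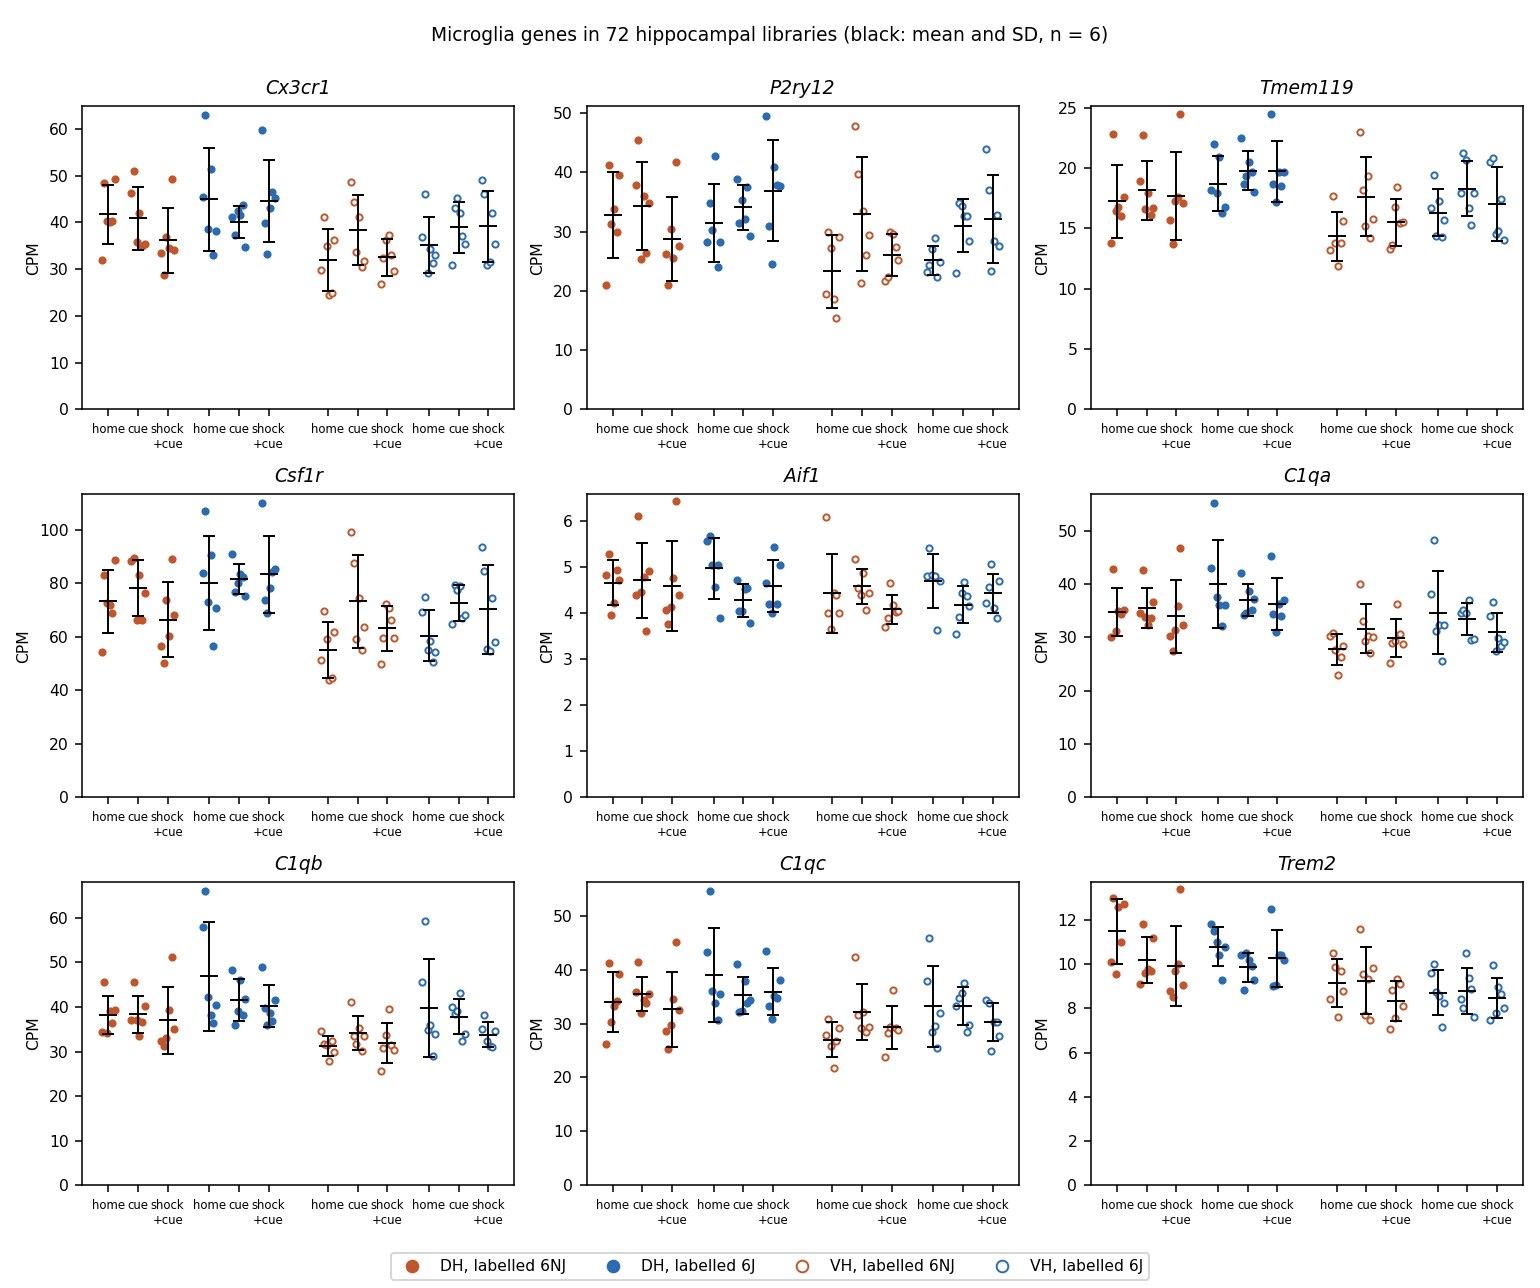
CPM of each gene in every library, with 1 point per library, black bars for the mean and SD of 6 libraries, and home cage, cue, and shock and cue from left to right within each strain label. Filled points are DH and open points VH, and the ranges of the regions overlap in every panel, with Csf1r reaching 110 CPM in DH and 99.3 CPM in VH.

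The mean of DH was the higher in each of the 6 pairs of groups with the same strain label and condition, for all 9 members, while the libraries overlapped in every pair. For P2ry12 the log2 ratio of the means ran from 0.06 to 0.49 over these pairs, and for C1qb from 0.14 to 0.29. Whether the region difference itself differed between strain labels was tested with edgeR, and 0 of 9 members passed, with 0 at an unadjusted p under 0.05 and 0 with DESeq2. Of all genes 0.00494% passed that test, and the members' estimates lay between -0.08 and 0.05.

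Genes of several other cell types differed between the regions as well, in either direction. All 8 oligodendrocyte genes were higher in DH, with a median log2 fold change of 0.881, and their summed level was 6310 to 12900 CPM in DH and 3250 to 8290 CPM in VH. All 7 choroid plexus genes were higher, with a median of 1.703 and summed levels of 41.2 to 8940 CPM in DH and 24.3 to 2340 CPM in VH. Of 8 genes of border macrophages, the macrophages of vessels and meninges, Stab1 (0.19, adjusted p = 0.00608) and Pf4 (0.36, adjusted p = 0.0423) were higher. That is a smaller share than the 63.6% of all genes, and the summed level was 12 to 24.4 CPM in DH and 9.53 to 23.3 CPM in VH. Astrocyte genes divided, 4 of 9 higher and 3 lower, with a median of 0.033. Of 6 neuron genes 1 was higher and 4 were lower (median -0.096), and of 6 endothelial genes 0 passed (median 0.021).

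With the choroid plexus level as a covariate 8 members still passed, with a median of 0.27. With the oligodendrocyte level as a covariate 0 of 9 passed in edgeR, with 0 at an unadjusted p under 0.05. P2ry12 was then at 0.25 (adjusted p = 0.183) and Csf1r at 0.19 (adjusted p = 0.237), and the other 6 that had passed were at 0.08 to 0.11. The oligodendrocyte level itself differed between the regions, so region and oligodendrocyte content cannot be told apart for these members. DESeq2 was not run with this covariate.

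Other genes known from microglia followed the same direction. Of 25, 21 were higher in DH and none was lower, with a median log2 fold change of 0.204. Sall1, a transcription factor that keeps microglial identity, was higher by 0.21 ± 0.0348 (adjusted p = 2.06e-07), and the inhibitory receptor gene Cd33 by 0.39 ± 0.0742 (adjusted p = 5.92e-06). Spi1, which encodes PU.1, was higher by 0.2 ± 0.0621 (adjusted p = 0.00369). The 4 that did not pass were Cd68 at 0.03, Irf8 at 0.09, Slc2a5 at 0.07 and Mertk at -0.07.

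Ligands and partners of the receptors differed in both directions, 10 of 14 higher in DH and 3 lower. Cx3cl1, the ligand of Cx3cr1, was higher by 0.25 ± 0.0216 (adjusted p = 1.25e-16). The ligands of Csf1r divided, with Csf1 at 0.22 ± 0.0283 (adjusted p = 2.3e-10) and Il34 at -0.22 ± 0.0279 (adjusted p = 4.17e-10). Nt5e, which forms adenosine from AMP, was higher by 0.6 ± 0.0422 (adjusted p = 2.31e-20). Cd200, a neuronal ligand that restrains microglia, was at -0.42 ± 0.0281 (adjusted p = 1.19e-21). Tyrobp, the adaptor of Trem2, was higher by 0.15 ± 0.0417 (adjusted p = 0.00166).

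Complement genes outside C1q did not share a direction, with 10 of 15 tested higher in DH and 3 lower. C3, the central component, was higher by 1.3 ± 0.152 (adjusted p = 2.57e-11) and Serping1, the C1 inhibitor, by 0.47 ± 0.0826 (adjusted p = 1.42e-06). The genes of the proteases that join C1q were lower, C1s1 at -0.61 ± 0.0764 (adjusted p = 1.82e-10) and C1ra at -0.49 ± 0.0839 (adjusted p = 6.01e-07), as was C4a at -0.24 ± 0.0675 (adjusted p = 0.00174). Of 16 genes known from activated microglia, 12 were higher, among them Gpnmb by 1.03 (adjusted p = 3.09e-25), Cd9 by 0.61 (adjusted p = 1.88e-21) and Ctsz by 0.44 (adjusted p = 9.24e-20). Apoe, which astrocytes also make, was the 1 that was lower, at -0.11 (adjusted p = 7.09e-05). From which cells the RNA of these 16 genes came was not tested. Inflammatory genes were higher in 7 of 13, with the chemokine gene Ccl3 at 1.49 (adjusted p = 1.37e-08), and interferon response genes in 6 of 8, and none of either list was lower. Of all genes 32.7% were higher and 30.9% lower in DH, so calls in these lists were common in the background as well, and the 7 of 13 inflammatory genes called are a smaller share than the 63.6% of all genes.

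**Figure D2:**
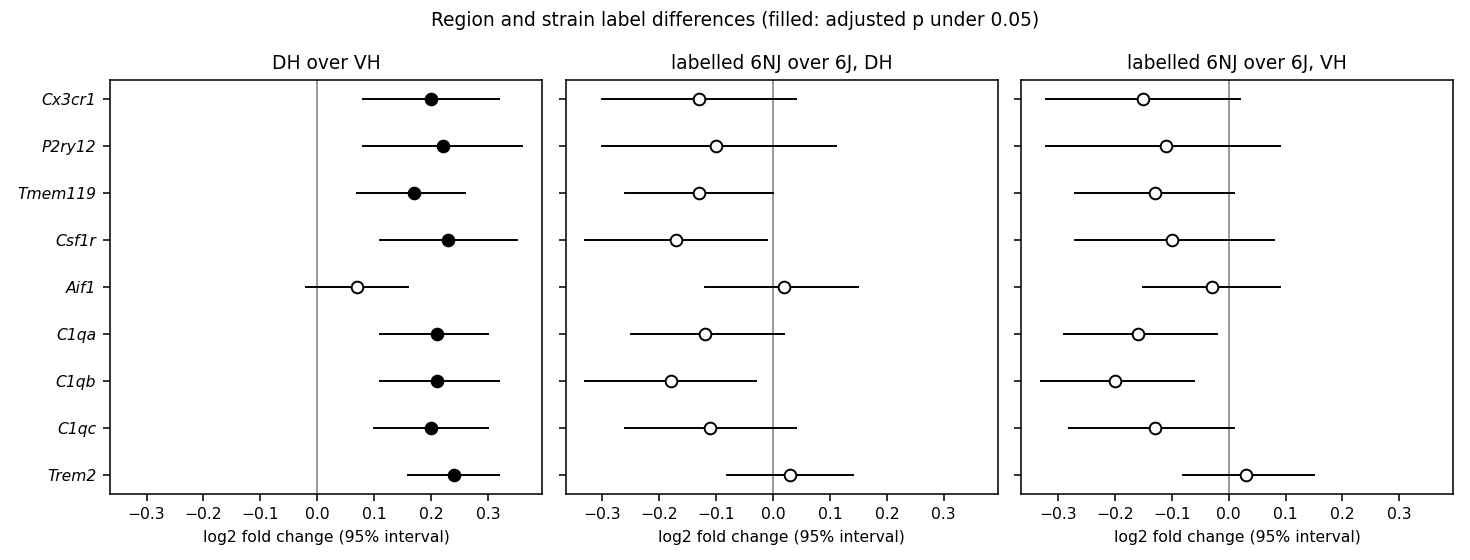
Log2 fold changes of the 9 genes for DH over VH and for libraries labelled 6NJ over 6J in each region, with 95% intervals and filled points where the adjusted p was under 0.05. For DH over VH 8 of 9 points are filled, at 0.17 to 0.24, and for the strain labels none is.

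At the level of transcripts, 21 of the 31 annotated transcripts of the members were tested between regions. Of these, 10 were higher in DH and none was lower, where 26.9% of all transcripts passed. They were C1qa-201, C1qb-201, C1qc-201, Csf1r-201, Cx3cr1-201, Cx3cr1-202, P2ry12-202, Tmem119-201, Trem2-201 and Trem2-203. Most members came mainly from 1 transcript, such as Csf1r-201 with 97.1% of the Csf1r TPM and Cx3cr1-201 with 86.5% of that of Cx3cr1. Cx3cr1-202, with 11.5%, averaged 4.11 ± 5.33 CPM in DH and 2.63 ± 4.47 CPM in VH (SD, n = 36 each), so its spread exceeded its mean, and its log2 fold change was 2.26 ± 0.854 (adjusted p = 0.0413). Aif1 was estimated to be divided between Aif1-205, a form with a retained intron, at 45.2% of its TPM, and the protein-coding Aif1-203 at 32%, and neither passed, at 0.11 (adjusted p = 0.562) and 0.21 (adjusted p = 0.68).

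Between the strain labels no member passed, although most lay lower in libraries labelled 6NJ. In DH, 0 of 9 passed with edgeR, 3 had an unadjusted p under 0.05 and 0 passed with DESeq2, where 14.7% of genes passed. In VH, 0 of 9 passed with edgeR, 2 had an unadjusted p under 0.05 and 1 passed with DESeq2, where 9.92% passed. The median log2 fold change of the members was -0.118 in DH, against -0.005 over all genes, and -0.13 in VH, against -0.001. Without 6 codes labelled 6J that held the acute-phase gene Lcn2 above 2 CPM in both regions, the members' median was -0.06 in DH and -0.068 in VH, and 0 had an unadjusted p under 0.05 in either.

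C1qb came closest to the threshold. In VH it had 25.7, 31.7 and 41 CPM (lowest, median, highest) in libraries labelled 6NJ and 28.9, 34.9 and 59.2 CPM in those labelled 6J, a log2 fold change of -0.2 ± 0.0679 (adjusted p = 0.0617). In DH it had 31.2, 36.9 and 51.1 CPM under 6NJ and 35.9, 40.1 and 66 CPM under 6J (-0.18 ± 0.0733, adjusted p = 0.1). The ranges overlapped, and the top of each 6J range was code 35B. DESeq2 called C1qb in VH (adjusted p = 0.032). Without the 6 codes with high Lcn2, C1qb was at -0.08 in VH (adjusted p = 0.459) and -0.06 in DH (adjusted p = 0.669).

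The receptors and Trem2 gave smaller or no differences. Csf1r had 50.1, 72.2 and 89.5 CPM in DH labelled 6NJ and 56.5, 81.3 and 110 CPM in DH labelled 6J (-0.17 ± 0.079, adjusted p = 0.144), and was at -0.1 in VH. Trem2 was at 0.03 in both regions, with 95% intervals of -0.08 to 0.14 in DH and -0.08 to 0.15 in VH. Of the members' transcripts 0 of 21 passed in DH, with 1 at an unadjusted p under 0.05, where 2.9% of all transcripts passed in edgeR. In VH 0 of 20 passed, with 4 at an unadjusted p under 0.05, where 2.18% passed, and DESeq2 was not run on transcripts.

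Some genes around the members differed by label, in shares near the 14.7% of all genes in DH and 9.92% in VH. In DH 2 of 15 complement genes tested were lower, and of 14 ligands and partners 1 was higher and 1 lower. Of 16 activated microglia genes there, 2 were higher and 1 was lower. In VH 2 of 15 complement genes were lower, and 1 of 13 ligands and partners and 2 of 15 activated microglia genes were higher. Of the other microglia genes 0 of 25 passed in either region with edgeR, with 2 at an unadjusted p under 0.05 in each. Cd59a, an inhibitor of the membrane attack complex of complement, was at -1.22 ± 0.205 in DH libraries (adjusted p = 0.000114). The VH value was -1.11 ± 0.11 (adjusted p = 4.67e-09). Csf1, a ligand of Csf1r, was higher under 6NJ in DH by 0.14 ± 0.0415 (adjusted p = 0.0197) and by 0.11 ± 0.0364 in the VH libraries (adjusted p = 0.0475). Gpnmb was higher in DH by 0.42 ± 0.0738 (adjusted p = 0.000114) and by 0.34 ± 0.0866 in the VH libraries (adjusted p = 0.00796). Beside these, 8 of 8 oligodendrocyte genes were higher under 6NJ in DH, with a median of 0.241. In VH 1 of 8 passed with edgeR and 8 had an unadjusted p under 0.05, with a median of 0.276. With the oligodendrocyte level as a covariate, the VH value of C1qb was -0.24 (adjusted p = 0.058) and its DH value -0.2 (adjusted p = 0.203).

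In the home cage alone no member passed either. In DH 0 of 9 passed with edgeR, 1 had an unadjusted p under 0.05 and 0 passed with DESeq2, where 0.931% of genes passed. In VH these were 0, 3 and 0, where 1.35% passed. C1qb lay at 27.8, 31.6 and 34.5 CPM in VH labelled 6NJ and at 28.9, 35.4 and 59.2 CPM in VH labelled 6J (-0.34 ± 0.118, adjusted p = 0.159), so the groups overlapped and parted at the top. C1qa was at -0.32 (adjusted p = 0.168) and C1qc at -0.3 (adjusted p = 0.261). Without the codes with high Lcn2, C1qb was at -0.1 (adjusted p = 0.701), C1qa at -0.13 and C1qc at -0.09.

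The 6 codes with high Lcn2 were 32A, 32B, 34A and 34C after the cue and 35A and 35B in the home cage. In the 4 cue codes Lcn2 lay at 7.95 to 20.8 CPM in DH and at 3.9 to 14.7 CPM in VH. Their C1qb was 35.9 to 48.3 CPM in DH, against 38.3 to 39.2 CPM in the other 2 cue libraries labelled 6J. In VH it was 33.9 to 43.1 CPM, against 32.4 to 39.2 CPM, so the ranges overlapped. Codes 35A and 35B did stand apart in C1qb, and were chosen for description after the values were seen. In DH their C1qb was 57.9 and 66 CPM, and the other 34 DH libraries reached at most 51.1 CPM. In VH it was 45.5 and 59.2 CPM, and the other 34 reached at most 43.1 CPM. For C1qa and C1qc only 35B lay above the rest. Code 35A was within their range, with C1qa at 43 CPM in DH (others up to 46.7 CPM) and 38.1 CPM in VH (others up to 40.1 CPM), and C1qc at 43.3 CPM in DH (others up to 45.2 CPM) and 37.9 CPM in VH (others up to 42.3 CPM). P2ry12 was not high in them, at 28.2 and 34.9 CPM in DH, ranks 27 and 15 of 36, and at 23.2 and 24.4 CPM in VH, ranks 28 and 26. The mean of the C1q chains over P2ry12 was 0.77 and 0.75 on the log2 scale in DH, against -0.25 to 0.53 in the other libraries, and 0.8 and 1.07 in VH, against -0.35 to 0.88. Trem2 was not at the top either, at ranks 7 and 8 in DH and 9 and 4 in VH. Cx3cr1 stood at ranks 10 and 1 in DH and 14 and 3 in VH, and Csf1r at 11 and 2 in DH and 14 and 8 in VH. Aif1 stood at ranks 4 and 3 in DH and 8 and 2 in VH, and Tmem119 at 17 and 6 in DH and 16 and 6 in VH. Cx3cr1 over P2ry12 was 0.69 and 0.85 on the log2 scale in DH, against 0.02 to 0.61 in the other libraries. In VH this ratio was 0.67 and 0.92, against 0.03 to 0.69.

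Some markers of other cells were high in the same libraries and others were low. Lcn2 lay at 5.38 and 13.3 CPM in DH of 35A and 35B, against 0.031 to 0.181 CPM in the other 4 DH home cage libraries labelled 6J, and at 5.86 and 16.8 CPM in VH, against 0.0282 to 0.291 CPM. The neutrophil gene S100a9 lay at 2.75 and 4.17 CPM in DH, against 0.031 to 0.2 CPM, and at 2.33 and 6.01 CPM in VH, against 0.0499 to 0.197 CPM. The endothelial gene Cldn5 lay at 47.1 and 45.4 CPM in DH, against 28.3 to 37.1 CPM, and at 57.8 and 57.8 CPM in VH, against 30.2 to 32.3 CPM. Of 6 endothelial genes, 4 in DH and 6 in VH lay above the other 4 libraries in both codes, and the list summed to 247 and 250 CPM in DH, against 205 to 211 CPM, and to 290 and 282 CPM in VH, against 178 to 198 CPM. Of 14 blood cell genes, 6 lay above and 4 below in DH, where the list summed to 65.9 and 68.3 CPM, against 72.9 to 172 CPM. The 4 below were haemoglobin genes, such as Hbb-bs at 28.6 and 30.6 CPM, against 35.8 to 79.3 CPM. In VH 4 blood cell genes lay above and 0 below, and the list summed to 83.9 and 82.2 CPM, within the 64.6 to 107 CPM of the others. Of 5 meningeal genes 4 lay below in DH and 0 in VH, and of 9 astrocyte genes 1 lay below in each region and 0 above. Of the 25 other microglia genes, 11 in DH and 19 in VH lay above the other 4 libraries in both codes, and 0 lay below. Of the 9 members 5 lay above in DH and 6 in VH, and 0 below. Among the other microglia genes, the antibody receptor gene Fcgr3 lay at 12.2 and 16.1 CPM in DH, against 6.63 to 8.61 CPM. Cd68 lay at 6.87 and 6.43 CPM in DH, within the 5.96 to 7.09 CPM of the others. These counts of genes above or below were not made over all genes, so no background share stands beside them. Genes of a list also vary together, and a shift of many genes in these libraries was not tested. The part of blood, vessel or other cells in the C1q values was not tested.

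**Figure D3:**
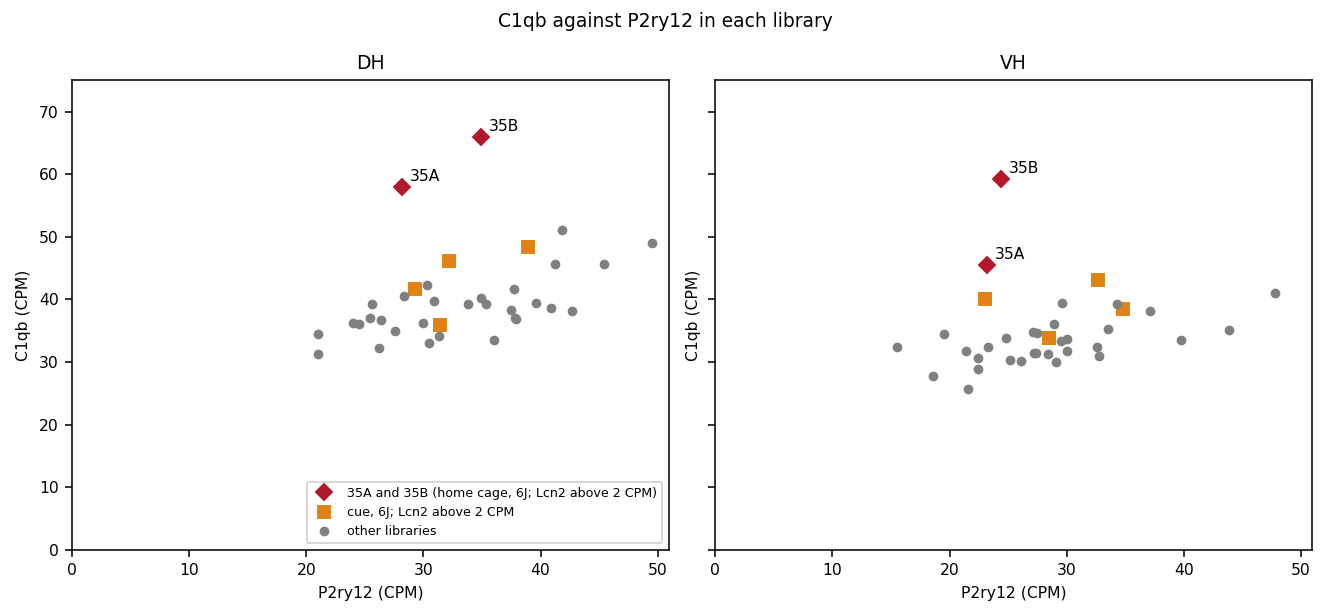
C1qb against P2ry12, both in CPM, with 1 point per library. The diamonds are codes 35A and 35B, with C1qb of 57.9 and 66 CPM in DH and 45.5 and 59.2 CPM in VH above every other library of their region, and the squares are the 4 cue codes labelled 6J with Lcn2 above 2 CPM.

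After the cue alone no member passed in any of the 4 comparisons with the home cage. In DH labelled 6NJ, 0 of 9 passed with edgeR, 0 had an unadjusted p under 0.05 and 0 passed with DESeq2, where 2.36% of genes passed. In DH labelled 6J these were 0, 0 and 0, where 5.89% passed, and in VH labelled 6J 0, 0 and 0, where 12.8% passed. In VH labelled 6NJ, 0 passed with edgeR, 4 had an unadjusted p under 0.05 and 2 passed with DESeq2, where 12.9% passed. Without the 6 codes with high Lcn2, the genes called among all genes numbered 31 in DH labelled 6J, against 1157 with them, and 47 in VH labelled 6J, against 2518. That left 2 cue libraries and 4 home cage libraries labelled 6J in each region, and the part of fewer libraries was not tested.

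VH labelled 6NJ came closest. P2ry12 lay at 21.4, 31.5 and 47.8 CPM after the cue and at 15.5, 23.3 and 30 CPM in the home cage, a log2 fold change of 0.5 ± 0.173 (adjusted p = 0.0551). Csf1r lay at 55, 69.2 and 99.3 CPM after the cue and at 43.7, 55.2 and 69.8 CPM in the home cage (0.41 ± 0.15, adjusted p = 0.0654). Tmem119 lay at 14.2, 17 and 23 CPM after the cue and at 11.9, 13.8 and 17.7 CPM in the home cage (0.29 ± 0.117, adjusted p = 0.0893). The groups overlapped for each of these genes, and the highest cue library was 38A in each. DESeq2 called P2ry12 (adjusted p = 0.0278) and Csf1r (adjusted p = 0.0407). All 9 members lay above 0, with a median of 0.249, and Aif1 (0.05) and Trem2 (0.01) were the lowest.

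Among the other microglia genes, Cd53, which encodes a tetraspanin of leukocytes, rose by 0.5 ± 0.159 (adjusted p = 0.036) in that comparison. The TGF-beta receptor gene Tgfbr1 rose by 0.4 ± 0.111 (adjusted p = 0.0167), the integrin gene Itgb2, a part of complement receptors, by 0.54 ± 0.168 (adjusted p = 0.0309) and the complement inhibitor gene Cd55 by 0.28 ± 0.0927 (adjusted p = 0.0403). Apoe fell, with a log2 fold change of -0.19 ± 0.0562 (adjusted p = 0.0214). Those that rose were 2 of 25 other microglia genes, 1 of 13 ligands and partners and 2 of 15 complement genes tested. Of 15 activated microglia genes tested, 1 fell. Of all genes 12.9% passed, so these shares lay near or below that of the background. Nfkbia, which encodes an inhibitor of NF-kappa-B and is itself induced by it, rose in all 4 cue comparisons, by 0.52 in DH labelled 6NJ, 0.6 in DH labelled 6J, 0.5 in VH labelled 6NJ and 0.36 in VH labelled 6J. Few inflammatory genes passed, 1 of 13 tested in DH under either label, 1 of 11 in VH labelled 6NJ and 2 of 11 in VH labelled 6J.

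In VH labelled 6J the cue gave 0.31 for P2ry12, with a 95% interval of -0.04 to 0.66 (adjusted p = 0.233), and 0.27 for Csf1r, with an interval of -0.03 to 0.58 (adjusted p = 0.222). In DH P2ry12 was at 0.07 (interval -0.29 to 0.42) under 6NJ and at 0.11 (interval -0.24 to 0.47) under 6J. C1qb was at 0.01 in DH labelled 6NJ and -0.18 in DH labelled 6J, and at 0.13 in VH labelled 6NJ and -0.06 in VH labelled 6J. Whether the cue response differed between labels was tested with edgeR, and 0 of 9 members passed in DH and 0 in VH, with 0 at an unadjusted p under 0.05 and 0 with DESeq2 in each. Of all genes 0% passed in each, with 621 in DH and 539 in VH at an unadjusted p under 0.05 and 0 with DESeq2.

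**Figure D4:**
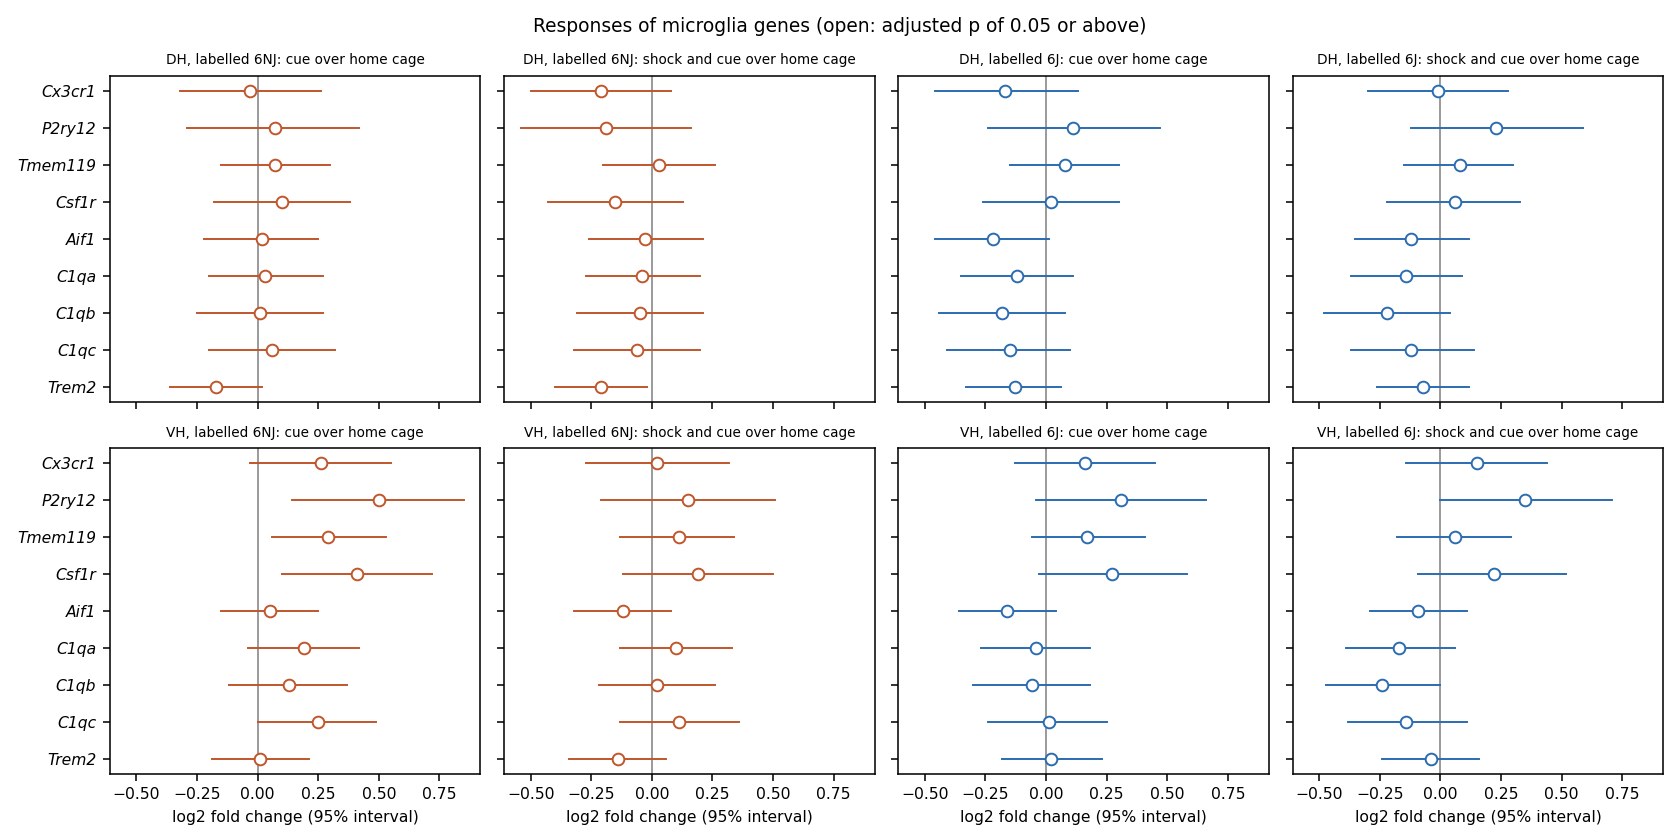
Log2 fold changes of the 9 genes over the home cage after the cue, and after shock and cue, in each region and strain label, with 95% intervals. All points are open, since no adjusted p was under 0.05, and the highest is P2ry12 after the cue in VH labelled 6NJ, at 0.5.

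After shock and cue no member passed. In DH labelled 6NJ, 0 of 9 passed with edgeR, 1 had an unadjusted p under 0.05 and 0 passed with DESeq2, where 3.57% of genes passed. In DH labelled 6J these were 0, 0 and 0, where 1.76% passed. In VH labelled 6NJ they were 0, 0 and 0, where 8.65% passed, and in VH labelled 6J 0, 1 and 0, where 3.11% passed. These comparisons share their home cage libraries with those of the cue.

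Receptor and C1q genes lay on different sides of 0 in VH labelled 6J. P2ry12 lay at 23.3, 30.6 and 43.9 CPM after shock and cue and at 22.4, 24.6 and 28.9 CPM in the home cage (0.35 ± 0.173, adjusted p = 0.257). C1qb lay at 31, 33.5 and 38.2 CPM after shock and cue and at 28.9, 35.4 and 59.2 CPM in the home cage (-0.24 ± 0.117, adjusted p = 0.266). Both pairs of groups overlapped, and without the codes with high Lcn2 C1qb was at 0.01 (adjusted p = 0.954). In DH labelled 6NJ Trem2 lay at 8.53, 9.38 and 13.4 CPM after shock and cue and at 9.55, 11.8 and 13 CPM in the home cage (-0.21 ± 0.0939, adjusted p = 0.222). Nfkbia rose in all 4 comparisons, by 0.54 in DH labelled 6NJ, 0.49 in DH labelled 6J, 0.5 in VH labelled 6NJ and 0.38 in VH labelled 6J. In each, 1 inflammatory gene was higher, of 13 tested in DH and 11 in VH, and under 6J 1 was lower in each region. The median over the list was -0.024 in DH labelled 6NJ and -0.206 in DH labelled 6J. In VH it was 0.065 under 6NJ and -0.242 under 6J.

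No difference between shock with cue and cue alone passed for a member. Over both strain labels, 0 of 9 passed with edgeR in DH and 0 in VH, with 0 at an unadjusted p under 0.05 and 0 with DESeq2 in each. Of all genes 0% passed in each, with 1997 in DH and 1426 in VH at an unadjusted p under 0.05, and DESeq2 called 3 in DH and 0 in VH. The members' estimates lay between -0.1 and 0.03 in DH and between -0.15 and -0.05 in VH. P2ry12 in VH was at -0.15, with a 95% interval of -0.4 to 0.1. Whether the response to shock and cue differed between labels gave 0 of 9 members in DH and 0 in VH with edgeR, 0 at an unadjusted p under 0.05 and 0 with DESeq2. Of all genes 0% passed in each, with 860 in DH and 817 in VH at an unadjusted p under 0.05, and DESeq2 called 0 in DH and 1 in VH. P2ry12 had the estimate farthest from 0, at -0.42 in DH with an interval of -0.92 to 0.07.

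Within groups the members varied together from library to library. Deviations of log2 CPM from the group mean had a median correlation of 0.685 over the 36 pairs of members in 72 libraries, of 0.768 in the 36 DH libraries and of 0.626 in the 36 VH libraries. These are descriptions, since all genes of a library share its dissection, depth and scaling. C1qa and C1qc had the highest (r = 0.958), followed by Cx3cr1 and Csf1r (r = 0.947) and C1qa and C1qb (r = 0.941). The lowest was P2ry12 and Aif1 (r = 0.313), and P2ry12 and C1qb were at r = 0.384. Library 39B in DH was the highest, with a mean deviation of 2.45 SD over the 9 genes, and 37B in DH the lowest, at -1.51 SD.

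Deviations of a DH library also ran with those of the VH library of the same code. Over 36 codes the correlation was 0.609 for Csf1r, 0.603 for Cx3cr1, 0.578 for P2ry12, 0.568 for C1qb, 0.552 for C1qa, 0.546 for C1qc and 0.488 for Tmem119. It was low for Trem2, at 0.192, and for Aif1, at 0.0891. What a code stands for is not stated in the labels.

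**Figure D5:**
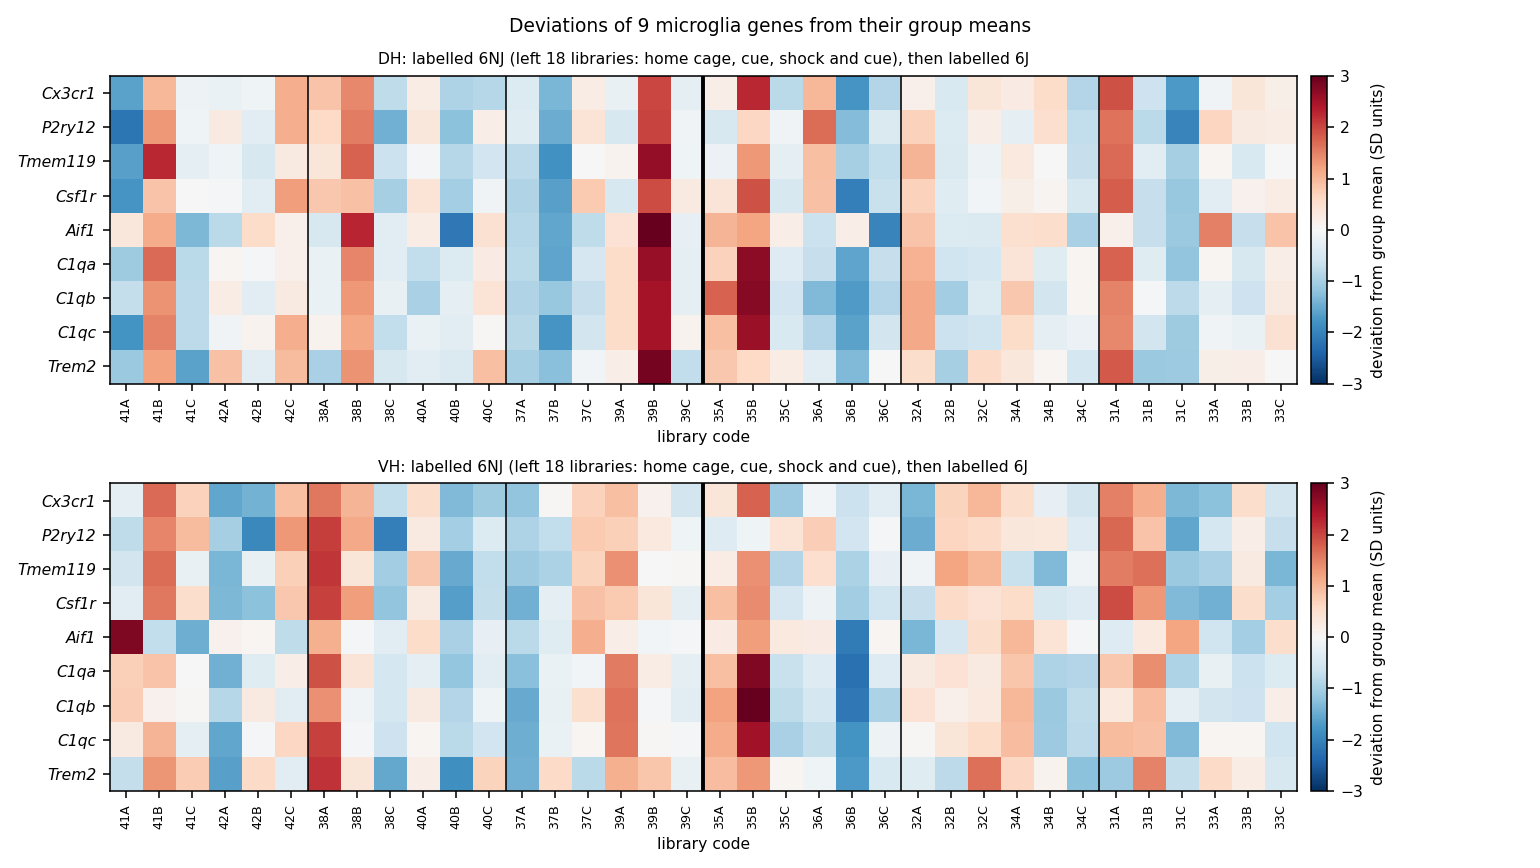
Deviation of each gene from its group mean in SD units, with 1 column per library, groups divided by lines and a thick line between libraries labelled 6NJ (left) and 6J. Many columns hold 1 colour over most genes, as in 39B in DH (mean 2.45 SD) and 37B in DH (mean -1.51 SD), while Aif1 departs in libraries such as 41A in VH.

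The genes that followed the members most closely were other microglial genes. Among 20255 genes, Ctss had the highest correlation with the mean of the members (r = 0.943 over 72 libraries), and high values were also those of Laptm5 (0.932), Fcrls (0.927), Mpeg1 (0.906), Cd53 and Selplg (0.891 each), Siglech (0.887), Olfml3 (0.878) and Vsir (0.877). All of those named but Mpeg1 were on the list of other microglia genes. Set against the other 8, C1qc (0.92), C1qa (0.918) and Csf1r (0.88) followed the members closely, P2ry12 (0.723) less so, and Aif1 (0.511) stood at rank 318. The 25 other microglia genes had a median of 0.816. The medians were 0.24 for border macrophage genes, 0.427 for astrocyte genes, 0.132 for oligodendrocyte genes, -0.0408 for blood cell genes and -0.343 for choroid plexus genes. Genes known from activated microglia had a median of 0.218, with none above 0.463. Inflammatory genes had a median of 0.267, complement genes outside C1q of 0.187 and interferon response genes of -0.107.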

How the data were processed

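Bulk mRNA libraries from DH and VH were made with a stranded TruSeq kit and sequenced as single-end reads of 75 bp, per the labels' protocols. The deposited gene table holds whole-number counts for 55401 genes, not normalized. The deposited transcript table holds estimated counts for 119414 transcripts, from which TPM was computed with the effective lengths in that table. FastQC, HISAT2, featureCounts, kallisto, DESeq2 and build GRCm38 are named per the submitters' processing notes. Neither versions nor the strand setting is given in the sources used here.

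Gene counts were tested with edgeR 4.0.16 (R 4.3.3): TMM scaling, genes kept by group size, robust quasi-likelihood fits, and Benjamini-Hochberg adjustment over all genes tested. Region was fitted on all 72 libraries (20255 genes), and the other comparisons within DH (19647 genes) or VH (19597 genes), where 6 groups share an estimate of the spread. Estimated transcript counts, once rounded to whole numbers, went through the same test. CPM used TMM scaling over 72 libraries, and correlations used log2 CPM with a prior count of 2. Gene rows without a symbol numbered 260. Alternatives were RLE scaling, other low-count filters, DESeq2 1.42.0, limma-voom (limma 3.58.1), fewer groups, covariates, libraries left out and a replicate block. With 6 libraries a group, no replicate was left out in turn. The scripts were tested on simulated data. A gene that met the rule for naming is not reported here. Genes named outside the members are, in each list and direction, at most the 3 with the smallest p among those that passed. Tyrobp, Spi1, the microglia genes that did not pass between regions and the genes given for codes 35A and 35B were chosen after their values were seen. The members and lists were chosen with earlier results of these data known. Counts of 124 to 3955 per member and library limit the precision by counting error alone, and Aif1 was the lowest.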

Additional observations from a re-analysis of the deposited data

Results flagged for a closer look

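In 3 of 108 sets of 6 libraries (1 gene in 1 group), a single library lay far from the nearest other, by Dixon's ratio on the log2 scale. Chance flags about 1 in 20 such sets. C1qc in VH labelled 6NJ after the cue was highest in library 38A, at 42.3 CPM, with the nearest library at 32.1 CPM. Trem2 in DH labelled 6NJ after shock and cue was highest in library 39B, at 13.4 CPM, with the nearest at 10 CPM. Aif1 in VH labelled 6J in the home cage was lowest in library 36B, at 3.64 CPM, with the nearest at 4.71 CPM.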

How the results depend on the processing

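Of 204 recomputed counts of members under the alternatives, 196 were within 1.5 times of the main count and 8 were not. The main count was 8 for DH over VH and 0 in every other comparison, where a count cannot fall and 0 against 0 shows no stability. With the oligodendrocyte level as a covariate, 0 members passed between regions and 7155 genes in all, against 12888. For the strain labels in VH, 1 member (C1qb) passed with a mean CPM of at least 1, 1 with DESeq2 and 1 with limma-voom, where the number of the code was a random effect. For the cue in VH labelled 6NJ, 1 passed with a mean CPM of at least 1 (P2ry12), 2 with DESeq2 and 2 with limma-voom (P2ry12 and Csf1r). For the cue in VH labelled 6J, P2ry12 passed in a fit of only the groups compared (0.3, adjusted p = 0.0447), which uses fewer libraries. No estimate of a member that had passed turned its direction.

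The code as a replicate block, which pairs a DH and a VH library, gave 8 members and 13319 genes between regions. The correlation of same-code deviations over 20255 genes was above 0.1 in 16 of 36 codes (median 0.0949), and 17 of 36 DH libraries matched their own code best among the 6 of their group. Pairing was to be taken only where every code exceeded 0.1, so the block stayed an alternative, and the best matches are a hint of pairing from the data, not from the design.

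For counts over all genes, the lowest and highest over the alternatives are given. Labels in the home cage gave 104 to 303 genes in DH, against 183, and 59 to 390 in VH, against 264. Labels over all conditions gave 1294 to 3368 in DH, against 2888, and 1009 to 2401 in VH, against 1945. The cue gave 268 to 626 in DH labelled 6NJ, against 463, 893 to 3014 in VH labelled 6NJ, against 2519, 31 to 1437 in DH labelled 6J, against 1157, and 47 to 2979 in VH labelled 6J, against 2518. Shock and cue gave 385 to 1021 in DH labelled 6NJ, against 701, 863 to 2014 in VH labelled 6NJ, against 1696, 178 to 511 in DH labelled 6J, against 345, and 331 to 935 in VH labelled 6J, against 610. The cause of these ranges was not tested. Fits of only the groups compared and fits without the codes with high Lcn2 also used fewer libraries, and the part of that was not tested. Each number of a code belongs to 1 strain label and 1 condition, so they cannot be told apart.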
